A study of Mus musculus with 12 samples.

Results

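The genes described here encode 9 subunits of ATP-dependent chromatin remodellers. Smarca4, Smarca2, Smarcc1 and Arid1a belong to SWI/SNF (BAF), Smarca5 and Smarca1 are the ATPases of ISWI, and Chd1, Chd4 and Chd7 are ATPases of the CHD family. They were taken from the arrays by gene name, older symbol or RefSeq accession, and all 9 were among the 19183 genes tested. They carried 24 of the 41174 probes, of which 22 were among the 28654 probes that passed the filter on dim signals. Remodellers use ATP to slide, eject or exchange nucleosomes. SWI/SNF complexes hold either Smarca4 (Brg1) or its paralog Smarca2 (Brm), and embryonic stem cells are known for a form built around Smarca4 and Smarcc1. INO80, whose ATPase was depleted in this study, is a separate remodeller family.

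The study used J1, a mouse embryonic stem cell line, infected with a lentivirus that carried a non-targeting hairpin (shNT) or a hairpin against Ino80 (shIno80). RNA was taken on day 2, 4 or 6 (48, 96 or 144 hours), which gave 6 groups of 2 single-colour Agilent arrays. All groups had been infected, so every difference below is between infected cultures; the number of hairpins and any selection of infected cells are not given in the sources used here. How the cultures behind the 2 arrays of a group were made is also not given, so the p-values measure only the spread between these samples, which may be technical.

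Each day was hybridised on 1 slide, with shNT at positions 1 and 3 and shIno80 at positions 2 and 4, so day and slide cannot be told apart, and neither can hairpin and slide position. The deposited value table and the attachment of the scanner files name different samples for 6 of the 12 arrays. Groups follow the value table, a choice made with the Ino80 signal known, and with the groups as attached none of the 9 genes passed the test on any day. Arrays of 1 group correlated at 0.9905 to 0.9941 over the tested probes, and arrays of different groups at 0.9241 to 0.9869. With the groups as attached, arrays of 1 group correlated at 0.9476 to 0.9869. Between 62.35% and 69.68% of spots were well above background on an array, and the 75th percentile of processed intensity ran from 1162 to 1643. The Ino80 probe was lower in shIno80 by 1.99, 2.30 and 2.09 on the log2 scale on days 2, 4 and 6, and its other 2 probes were lower too; this is not independent of how the groups were assigned.

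The markers of the labelled cell type moved with the hairpin. The 10 pluripotency markers were above background in every group, and their summed signal, relative to the array's 75th percentile, was already 360 to 381 in shNT against 237 to 239 in shIno80 on day 2, where 4 of the 10 were called lower. It was 306 to 310 in shNT and 71.1 to 80.6 in shIno80 on day 4. On day 6 it was 314 to 363 and 78.2 to 92.7. The sum over 9 trophoblast markers was 7.78 to 9.64 in shNT and 9.33 to 12.1 in shIno80 on day 2. It was 13 to 14 in shNT and 151 to 162 in shIno80 on day 4, and 25.8 to 29.2 against 510 to 533 on day 6. The shIno80 sum of day 6 was mostly keratin signal, with log2 means of 8.16 for Krt18, 7.56 for Krt8 and 4.98 for Krt7. Of these markers, 2 were called higher and 1 lower on day 2, 8 and 0 on day 4, and 8 and 1 on day 6. The lower marker was Tfap2c, at -1.89 on day 2 and -1.44 on day 6. The sum over 9 fibroblast markers lay between 3.38 and 5.12 in all groups, but its members moved in both directions: 1 was called higher and 1 lower on day 2, and 5 were called higher and 2 lower on day 4 and again on day 6. On day 6 the collagen gene Col1a1 was higher in shIno80 by 3.88 on the log2 scale and the matrix gene Dcn by 3.82, while Fbln1 and Thy1 were lower by 0.90 and 0.68. Lum was not above background in any shNT group. The sum over 8 neural markers lay between 5.8 and 10.6, with 1 called higher and 0 lower on day 2, 2 and 4 on day 4, and 2 and 5 on day 6. These marker changes ran alongside every result below, those of day 2 included, and their part in those results was not tested.

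The Smarca2 result rests on a single probe, so the probes of this gene are shown first. Coordinates are those of the files, on build mm7. The probe farthest downstream (A_51_P450052, chr19:26477929-26477988, plus strand) gave the values reported for the gene, and its leading 30 bases are printed. The other 2 probes lie upstream in the gene, and neither passed the filter. In the middle Smarca2 probe and the middle Smarca4 probe, the capitals mark the bases at which the aligned stretch of these paralogs differs.
Smarca2 A_51_P450052: tacactgtggtacatataagcaacttgact
Smarca2 A_52_P388829 (chr19:26323906-26323965, plus strand): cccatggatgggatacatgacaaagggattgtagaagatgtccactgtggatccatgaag
Smarca2 A_51_P504037 (chr19:26354393-26354452, plus strand): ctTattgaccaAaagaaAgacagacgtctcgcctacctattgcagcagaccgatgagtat
Smarca4 A_51_P331702 (chr9:21520316-21521714, plus strand): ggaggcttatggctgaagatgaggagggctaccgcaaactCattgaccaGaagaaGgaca
The middle Smarca2 probe begins with 22 bases that align with the end of the Smarca4 probe at 19 positions. Counted from the 5′ end of the Smarca2 probe, with the Smarca2 base first, the differences are T3C, A12G and A18G. The Smarca2 probe that gave the gene's values has no such stretch: its best ungapped overlap with that Smarca4 probe held 13 bases, of which 5 matched.

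Smarca2, the alternative SWI/SNF ATPase, was higher in shIno80 on all 3 days, and the distance from shNT was largest on day 6. In these bulk RNA samples, more cells of a kind and more RNA per cell cannot be told apart. Signals are log2 of the processed intensity relative to the array's 75th percentile. On day 2 they were -4.67 and -5.04 in shNT and -3.95 and -4.07 in shIno80. On day 4 they were -4.89 and -4.97 against -3.47 and -3.56, and on day 6 they were -5.94 and -6.06 against -2.93 and -3.09. The groups did not overlap on any day, and every shNT array lay below every shIno80 array. The shNT arrays of days 2 and 4 overlapped, with means that differed by 0.07 (limma adjusted p = 0.753).

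The Smarca2 difference was 0.85 ± 0.14 (SE; limma adjusted p = 0.00806), or 1.8-fold, on day 2 and 1.42 ± 0.14 (adjusted p = 0.000105), or 2.67-fold, on day 4. On day 6 it was 2.99 ± 0.14 (adjusted p = 2.58e-06), with a 95% interval of 2.67 to 3.31. The probe was not well above background on either shNT array of day 6, so the size of that difference is uncertain. Smarca2 was 7.47-fold higher in shIno80 against the lowest signal well above background on each shNT array, or the probe's own where higher. That figure is no lower limit. On day 6 the log2 difference was 1.56 with the local background subtracted and an offset added, and 1.60 in the authors' value table. A larger log2 difference was measured for 3.69% of tested genes on day 2 and 7.08% on day 4. The response grew by 1.57 ± 0.20 between days 4 and 6 (adjusted p = 0.00722), a size that includes the shNT signal of day 6 below the background limit; 3.8% of all genes passed that test. No other member passed a test of the change between successive days. Between days 2 and 4 it grew by 0.57 ± 0.20, which did not pass (adjusted p = 0.0931; 15.3% of all genes passed there).

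The signal behind these values was weak. On day 6 the mean spot intensity was 96.8 and 92.2 in shNT over local backgrounds of 59.5 and 73, and 329.7 and 282.7 in shIno80 over 67 and 70. Subtracting the local background with an offset gave a difference of 0.87 on day 4 and 1.56 on day 6, both past the threshold, and 0.39 on day 2, which was not (adjusted p = 0.113). The authors' value table, which has no background subtraction, gave 0.41, 0.73 and 1.60, all past the threshold. With the arrays of day 2 alone the day 2 call was lost (adjusted p = 0.123). Of the other Smarca2 probes, A_52_P388829 was above background on 0 of 12 arrays. A_51_P504037 was above background on 2, which were an shIno80 array of day 4 and an shIno80 array of day 6.

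**Figure D1:**
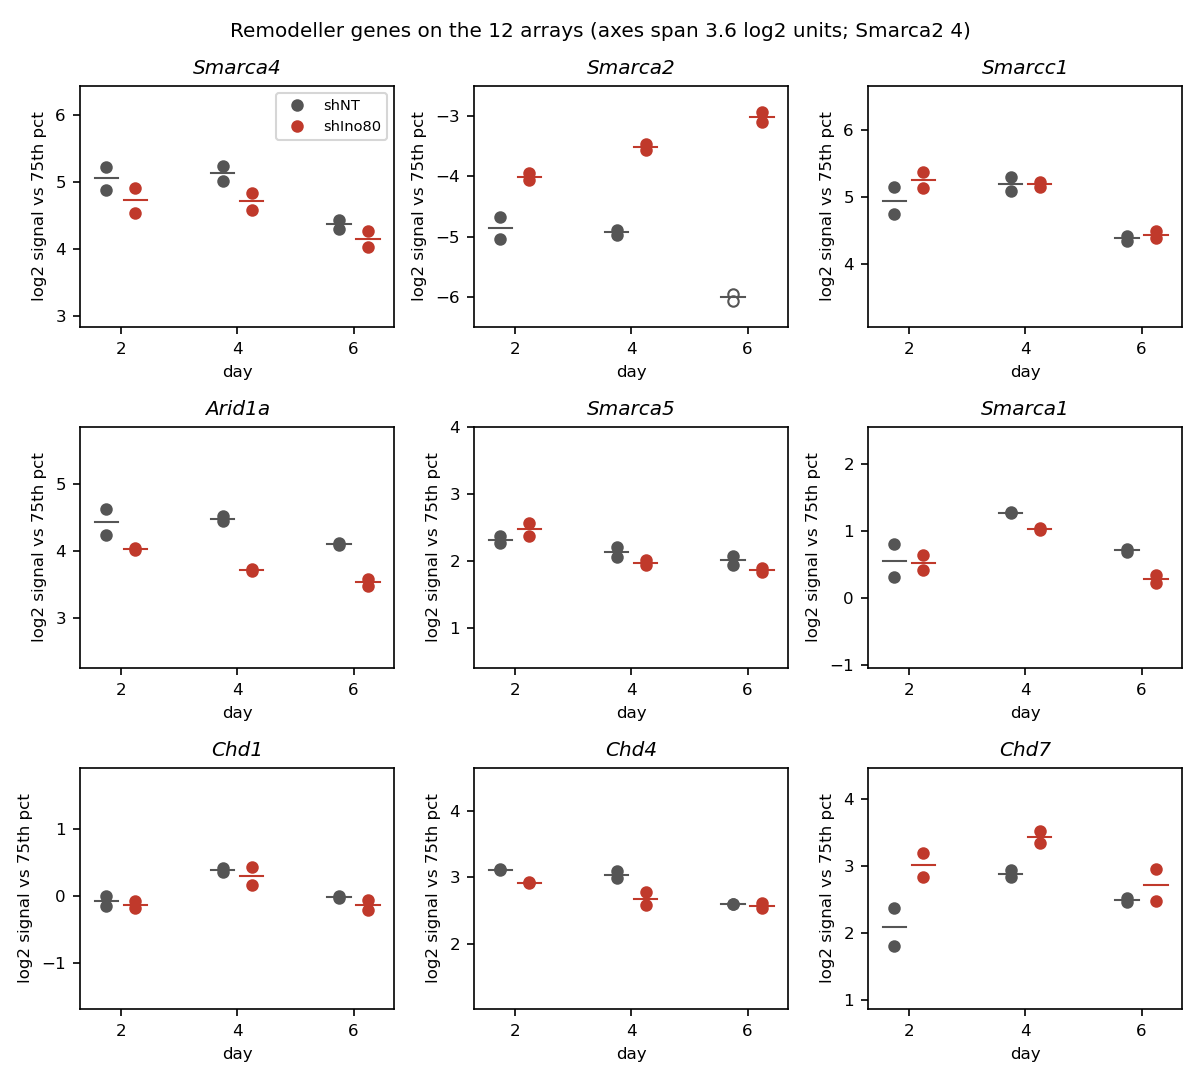
Log2 signal relative to the array's 75th percentile (y) of the brightest probe of each of the 9 genes by day (x); each point is 1 array, bars are group means, and open points are groups in which neither array was well above background. Each y axis has its own position but a span of 3.6 log2 units (4 for Smarca2). In Smarca2 the shIno80 points climb from -4.07 and -3.95 to -3.09 and -2.93 while the shNT points reach -6.06 and -5.94.

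Arid1a, the large DNA-binding subunit that defines the canonical BAF complex, was lower in shIno80 by its only probe (A_51_P118671, chr4:133057810-133057869, minus strand). The signals were 4.23 and 4.62 in shNT and 4.01 and 4.03 in shIno80 on day 2. On day 4 they were 4.43 and 4.52 against 3.70 and 3.72, and on day 6 they were 4.08 and 4.12 against 3.58 and 3.46. The groups were apart on every day, least so on day 2. The difference was -0.41 ± 0.13 on day 2 (limma adjusted p = 0.0839), -0.77 ± 0.13 on day 4 (adjusted p = 0.00193; 1.7-fold) and -0.57 ± 0.13 on day 6 (adjusted p = 0.00686; 1.49-fold). Arid1a therefore passed the test on days 4 and 6. In the authors' value table the day 6 difference was -0.34 and missed the threshold (adjusted p = 0.0572). With quantile normalization the day 2 difference was -0.33 and passed (adjusted p = 0.031).

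Smarca4, the main SWI/SNF ATPase of embryonic stem cells, read lower in shIno80 on all 3 days with each of its 3 probes, by 0.22 to 0.42 on the log2 scale. Its brightest probe read 4.88 and 5.23 in shNT against 4.54 and 4.91 in shIno80 on day 2, 5.02 and 5.24 against 4.84 and 4.59 on day 4, and 4.30 and 4.44 against 4.26 and 4.03 on day 6. Those groups overlapped on day 2 and lay close together afterwards. By that probe no day passed the test, with limma adjusted p of 0.305, 0.103 and 0.344. The probe farthest downstream (A_51_P479733, chr9:21582352-21582411, plus strand) had tighter replicates and passed on day 4 (-0.39 ± 0.10, adjusted p = 0.0117) and day 6 (-0.34 ± 0.10, adjusted p = 0.0191). The mean of the 3 probes also passed on day 4 (-0.40, adjusted p = 0.00942) and day 6 (-0.32, adjusted p = 0.0205), so the call for Smarca4 depends on the probe. The direction was not stable on day 2, where the brightest probe was at 0.02 with normexp background correction, or on day 6, where it was at 0.03 in the authors' value table.

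Smarcc1 (BAF155), a scaffold subunit, did not pass the test on any day. With quantile normalization it was called higher on day 2 (0.40, limma adjusted p = 0.0196) and day 6 (0.27, adjusted p = 0.0302). Its brightest probe read 4.34 and 4.41 in shNT and 4.48 and 4.38 in shIno80 on day 6, and the groups overlapped on every day. The 95% intervals of its difference were -0.04 to 0.66 on day 2, -0.36 to 0.34 on day 4 and -0.30 to 0.41 on day 6. The other Smarcc1 probe (A_52_P312837) gave -0.52 ± 0.20 on day 6 (adjusted p = 0.0601), so the probes of this gene did not move alike.

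The ISWI ATPases did not pass the test on any day by their brightest probes. Smarca5 (Snf2h), the ISWI ATPase required in early embryos, had differences of 0.15, -0.16 and -0.15 on days 2, 4 and 6 by its brightest probe, none past the threshold (limma adjusted p = 0.448, 0.281 and 0.302). Its 4 probes form 2 overlapping pairs. Both probes of the downstream pair, which share 48 bases and so are not separate evidence, passed on day 6: A_51_P221661 at -0.38 ± 0.12 (adjusted p = 0.0299) and A_52_P601095 at -0.38 ± 0.13 (adjusted p = 0.0377). The upstream pair, which holds the reported probe, is printed because its sequences disagree within their overlap. Capitals mark the 3 bases of 40 that differ.
Smarca5 A_52_P304881 (chr8:79248525-79248584, minus strand): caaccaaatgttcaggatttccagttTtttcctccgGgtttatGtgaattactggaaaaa
Smarca5 A_52_P207203 (chr8:79248505-79248564, minus strand): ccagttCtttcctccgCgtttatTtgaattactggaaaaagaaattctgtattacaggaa
Counted from the 5′ end of A_52_P207203, with its base first, the differences are C7T, C17G and T24G. These probes gave similar values all the same, at -0.13 and -0.15 on day 6.

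Smarca1 (Snf2l), the other ISWI ATPase, read 0.74 and 0.69 in shNT and 0.35 and 0.23 in shIno80 on day 6, with no overlap. The difference was -0.42 ± 0.16 and missed the threshold (limma adjusted p = 0.0533). It passed under 9 of 24 alternatives, among them median scaling (-0.52, adjusted p = 0.0379), quantile normalization (0.0383) and the arrays of day 6 alone (0.0226), while in the authors' value table it was -0.16 (0.349). Its other probe (A_51_P461404, chrX:42902301-42902360, minus strand) gave -0.44 ± 0.14 and passed (adjusted p = 0.0323). On day 2 its groups overlapped and the difference was -0.03, and on day 4 it was -0.25 (adjusted p = 0.253).

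Among the CHD genes, Chd7, an ATPase that binds enhancers, was called higher in shIno80 on day 2 alone, though its calls depended on the processing. Its brightest probe (A_52_P84315, chr4:8793693-8793752, plus strand) read 1.81 and 2.37 in shNT and 2.83 and 3.19 in shIno80 on day 2. It read 2.84 and 2.95 against 3.53 and 3.34 on day 4, and 2.52 and 2.47 against 2.96 and 2.49 on day 6, where the groups overlapped. The difference was 0.92 ± 0.22 on day 2 (limma adjusted p = 0.0337; 1.9-fold), 0.54 ± 0.22 on day 4 (adjusted p = 0.086) and 0.23 ± 0.22 on day 6 (adjusted p = 0.431). A probe elsewhere in the gene (A_51_P507307) gave 0.93 ± 0.19 on day 2 and also passed (adjusted p = 0.0193). The third Chd7 probe, A_52_P175821, was dim and its shNT arrays of day 6 read -3.28 and -1.56. On day 6 that probe was at -0.93 and A_51_P507307 at -0.14, neither past the threshold. The day 2 call was lost without replicate 1 of shNT day 2 (adjusted p = 0.133), replicate 1 or 2 of shIno80 day 2 (0.0605 and 0.158), either replicate of shNT or shIno80 day 4 (0.057 to 0.0617), or replicate 1 or 2 of shNT day 6 (0.0526 and 0.0563). It was also lost with median scaling (0.0508), no filter on dim probes (0.0702), normexp background correction (0.138) and the arrays of day 2 alone (0.161). Other settings gained later calls. On day 4 Chd7 passed in the authors' value table (0.57, limma adjusted p = 0.0201) and with quantile normalization (0.65, 0.022). It passed there too with the replicate block (0.0301) and the arrays of day 4 alone (0.0208). In the authors' value table it also passed on day 6 (0.49, 0.0389).

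Chd4, the ATPase of the NuRD repressor complex, was lower in shIno80 on day 4. It read 2.99 and 3.10 in shNT and 2.78 and 2.59 in shIno80, a difference of -0.36 ± 0.10 (limma adjusted p = 0.018; 1.28-fold). On day 2 it was -0.19 ± 0.10 (adjusted p = 0.266), and on day 6 it was -0.03 ± 0.10 (adjusted p = 0.842), where the groups overlapped. Its other 2 probes were at -0.32 and -0.26 on day 4 and did not pass (adjusted p = 0.0709 and 0.112). Without replicate 2 of shNT day 4 the Chd4 difference was -0.31 (adjusted p = 0.109), and without replicate 2 of shIno80 day 4 it was -0.27 (adjusted p = 0.134). The call was also lost with quantile normalization (-0.22, adjusted p = 0.14), in the authors' value table (-0.32, 0.0608), with normexp background correction (-0.25, 0.814) and with the arrays of day 4 alone (0.0649).

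Chd1, an ATPase linked to open chromatin in embryonic stem cells, did not pass the test on any day with any of its 3 probes. On day 6 its brightest probe read -0.04 and -0.01 in shNT and -0.06 and -0.22 in shIno80. The 95% intervals of its difference were -0.33 to 0.22 on day 2, -0.37 to 0.19 on day 4 and -0.39 to 0.17 on day 6.

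**Figure D2:**
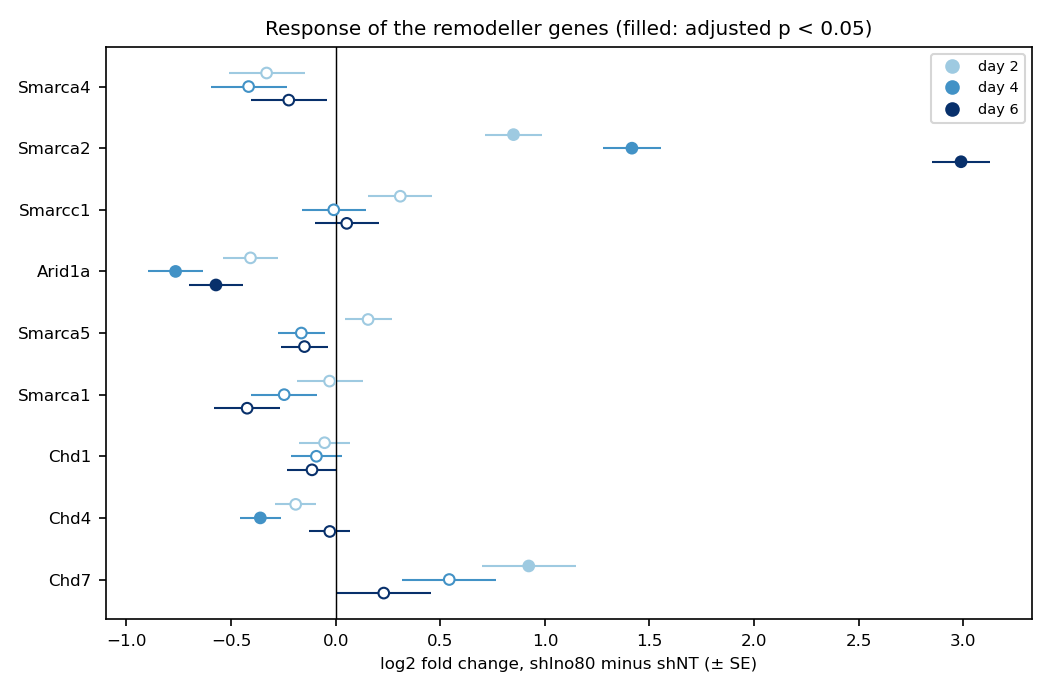
Log2 fold change of shIno80 minus shNT (x, with its standard error) of the 9 genes (y) on days 2, 4 and 6; filled points had a limma adjusted p under 0.05. Smarca2 lies to the right of all others on days 4 and 6, at 1.42 and 2.99, and Arid1a lies farthest to the left, at -0.77 and -0.57.

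Counted over the 9 genes, 2 were higher and 0 lower on day 2 (Smarca2 and Chd7), where 12.5% of all genes passed the limma test, 6.29% higher and 6.21% lower. On day 4, 1 was higher and 2 were lower (Smarca2; Arid1a and Chd4), where 42.3% of all genes passed, 20.9% higher and 21.3% lower. On day 6, 1 was higher and 1 lower (Smarca2; Arid1a), where 50.6% of all genes passed, 21% higher and 29.5% lower. So 22.2%, 33.3% and 22.2% of the members passed, beside 12.5%, 42.3% and 50.6% of all genes. With 9 genes a single call moves such a share widely, and its difference from that of all genes was not tested. The median difference of the members was -0.03, -0.16 and -0.11 on days 2, 4 and 6, beside 0.02, -0.05 and -0.14 over all genes. Other processing moved the split: the authors' value table called 2 higher and 1 lower on day 4 and 2 higher and 0 lower on day 6, and scaling to the median called 1 higher and 2 lower on day 6. Quantile normalization called 3 higher and 1 lower on day 2, 2 higher and 1 lower on day 4 and 2 higher and 2 lower on day 6.

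Over the 22 tested probes, 3 were higher and 0 lower on day 2, 1 was higher and 3 lower on day 4, and 1 was higher and 5 lower on day 6. Among all probes 5.86% were higher and 5.82% lower on day 2, 20.4% and 21.4% on day 4, and 21.1% and 28.9% on day 6. The 5 lower probes of day 6 belonged to Smarca4, Arid1a, Smarca5 (the overlapping pair) and Smarca1. The authors' value table had 2 probes called on day 6, both higher. That table differs in both scaling and background; scaling to the median called 1 higher and 7 lower there, and quantile normalization 2 higher and 5 lower. The lower calls of day 6 also fell to 1 without replicate 2 of shNT day 6, or without replicate 1 or 2 of shIno80 day 6. The 3 probe calls of day 2 fell to 1 without either array of shIno80 day 2, and the 4 of day 4 to 2 without replicate 2 of shNT day 4.

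**Figure D3:**
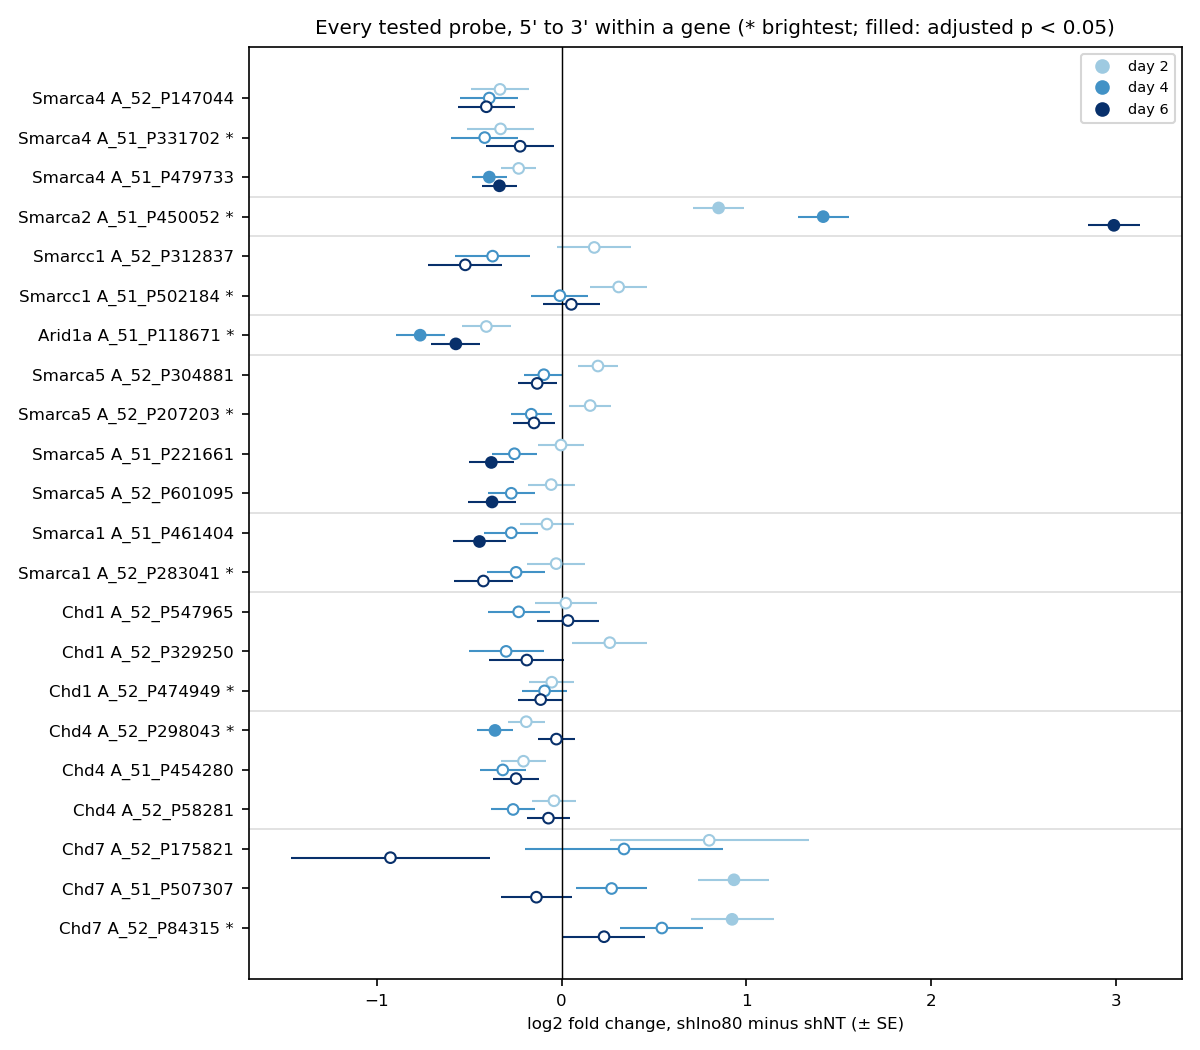
Log2 fold change of shIno80 minus shNT (x, with its standard error) of each of the 22 tested probes (y), ordered from 5′ to 3′ within a gene, on days 2, 4 and 6; a star marks the brightest probe and filled points had an adjusted p under 0.05 over all probes. The probes of Smarca4 lie together between -0.42 and -0.22, while those of Smarcc1 and Chd7 spread apart on day 6.

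The levels also changed with time inside each hairpin, where day and slide cannot be told apart. In shNT, 3 of the 9 genes rose from day 2 to day 4, against 7.63% of all genes: Chd7 by 0.80, Smarca1 by 0.72 and Chd1 by 0.47 (limma adjusted p = 0.0494, 0.0208 and 0.0384). The other Smarca1 probe passed too, at 0.58, while the other 2 probes of Chd7 and of Chd1 were higher by 0.16 to 0.33 and did not pass. From day 4 to day 6, 5 fell in shNT, against 8.78% of all genes. They were Smarca2 at -1.07 (adjusted p = 0.00613), whose probe was not well above background on either shNT array of day 6, Smarcc1 at -0.82 (0.0145), Smarca4 at -0.76 (0.03), Smarca1 at -0.56 (0.0465) and Chd4 at -0.44 (0.0247). For Smarca4 and Smarcc1 this fall was in the brightest probe alone: the downstream Smarca4 probe changed by -0.08 and the other Smarcc1 probe by 0.36, neither past the threshold. Of the other 2 Chd4 probes, 1 passed at -0.44 and 1 was at 0.02, and the other Smarca1 probe was at -0.45 and did not pass.

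In shIno80, Smarca1, Smarca2 and Chd1 rose from day 2 to day 4, by 0.50, 0.49 and 0.43, and Smarca5 fell by 0.50 (limma adjusted p = 0.0355, 0.0231, 0.0237 and 0.00831), where 20.7% of all genes rose and 18.1% fell. The Smarca5 fall passed with all 4 of its probes. The Chd1 rise was in 1 probe alone, with the other 2 at 0.05 and -0.23, and the other Smarca1 probe was at 0.38 and did not pass. The Smarca2 rise missed the threshold with median scaling, quantile normalization and in the authors' value table (adjusted p = 0.0627, 0.113 and 0.0741). From day 4 to day 6, Smarca2 rose again by 0.50 (adjusted p = 0.0335), while Smarcc1 at -0.75, Smarca1 at -0.74 and Chd1 at -0.43 fell (adjusted p = 0.0119, 0.0141 and 0.0353), where 8.21% of all genes rose and 17% fell. The other Smarcc1 probe was at 0.22, and the other 2 Chd1 probes at -0.39 and 0.49, none past the threshold, while both Smarca1 probes passed. The later Smarca2 rise missed the threshold with quantile normalization (0.54, adjusted p = 0.0691). Smarca1, by its brightest probe, rose and then fell in both hairpins.

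These counts over time depended on the scaling and on single arrays. Scaling to the median left 1 of the 3 shNT rises, 2 of the 5 shNT falls and 1 of the 4 shIno80 calls of day 4 over day 2. In the authors' value table the later Smarca2 fall in shNT was -0.35 and was not called (adjusted p = 0.0627). The 3 shNT rises went to 0 without replicate 1 of shNT day 2 or either replicate of shNT day 4, and to 1 without either array of shIno80 day 2, shNT day 6 or shIno80 day 6. The 5 shNT falls went to 2 without replicate 1 of shNT day 4, and to 1 without its replicate 2 or either array of shNT day 6. The 4 shIno80 calls of day 4 went to 0 without replicate 1 of shIno80 day 2 or replicate 2 of shIno80 day 4, and to 2 without the other array of either group. Those of day 6 went to 0 without replicate 2 of shIno80 day 4 or of shIno80 day 6, to 1 without replicate 1 of shIno80 day 4, and to 2 without either array of shNT day 4 or replicate 2 of shNT day 6.

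The other subunits of these complexes moved in both directions. Of 52 other subunits listed, 50 were tested; Bicra and Bicral were not matched to a probe. On day 2, 1 was higher and 6 were lower, on day 4 the counts were 6 and 18, and on day 6 they were 8 and 16. That is 14%, 48% and 48% of the subunits in either direction, near the 12.5%, 42.3% and 50.6% of all genes. The median difference was -0.03, -0.14 and -0.21 on days 2, 4 and 6, beside 0.02, -0.05 and -0.14 over all genes. On day 6 scaling to the median called 3 higher and 20 lower, and quantile normalization 12 and 18, while the authors' value table, which differs in both scaling and background, called 13 higher and 11 lower. On day 4 quantile normalization called 10 higher and 16 lower, and on day 2 it called 2 and 5. On day 2 the authors' value table called 1 higher and 3 lower.

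Of the 24 tested SWI/SNF subunits, 0 were higher and 2 lower on day 2, 2 and 6 on day 4, and 4 and 6 on day 6. In either direction that is 8.33%, 33.3% and 41.7%, beside 12.5%, 42.3% and 50.6% of all genes. Smarcd3 (BAF60C), a subunit known from heart and muscle, fell by 2.59 ± 0.20 on day 4 (limma adjusted p = 3.29e-05; 6.02-fold) and by 1.65 ± 0.20 on day 6 (adjusted p = 0.000223). Bcl7a, a small accessory subunit, fell on all 3 days, by 0.95, 1.26 and 1.30 (adjusted p = 0.00123, 3.08e-05 and 1.77e-05). Actl6a (BAF53A), the actin-like subunit of proliferating cells that is also part of INO80, fell by 1.06 on day 6 (adjusted p = 0.000136), though its other probe was at -0.16 there. On day 4 Actl6a was at -0.76 (adjusted p = 0.00102), and its other probe passed too, at -0.57. The PHD finger subunit Dpf2 fell by 0.37 on day 2 (adjusted p = 0.0247). It was at -0.53 on day 4 and -0.63 on day 6 (adjusted p = 0.00112 and 0.000346). Its neuronal relative Dpf1 fell by 1.30 on day 4 (adjusted p = 0.0169) and was at -0.85 on day 6, which did not pass (adjusted p = 0.0761). Among those that rose, the zinc finger protein Bcl11b was up by 0.92 on day 4 (adjusted p = 0.00626) and the bromodomain subunit Brd9 by 0.34 on day 4 and 0.44 on day 6. Smarce1 (BAF57) at 0.49 and Pbrm1, the polybromo subunit of PBAF, at 0.39 passed on day 6 (adjusted p = 0.0241 and 0.0129). The other Smarce1 probe was at 0.11 and did not pass, and neither did the other 3 Pbrm1 probes.

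Of the 11 ISWI partners, 0 were higher and 1 lower on day 2, 1 and 6 on day 4, and 1 and 5 on day 6. In either direction that is 9.09%, 63.6% and 54.5%, beside 12.5%, 42.3% and 50.6% of all genes. Baz1a (ACF1), the partner of Smarca5 in the ACF and CHRAC complexes, rose by 2.44 ± 0.26 on day 4 (limma adjusted p = 0.000152; 5.44-fold) and by 1.80 ± 0.26 on day 6 (adjusted p = 0.000584), and all 3 of its probes passed on both days. Cecr2, a partner of the ISWI ATPases in the CERF complex, fell by 0.97 on day 4 and 1.43 on day 6 (adjusted p = 0.000385 and 3.68e-05) with both probes. Baz2a (TIP5), the NoRC subunit that acts at ribosomal genes, fell by 0.80 and 0.64 (adjusted p = 0.00199 and 0.00524) with all 5 probes. The CHRAC histone-fold subunits were lower too: Pole3 fell by 1.42 on day 2 and 1.18 on day 4 (adjusted p = 0.0146 and 0.00845), and Chrac1 by 0.66 on day 6 (adjusted p = 0.00338). The other Pole3 probe was at -0.09 on day 2 but passed on days 4 and 6, at -0.69 and -0.37. The Chrac1 probe that gave the gene's values also passed on day 4, at -0.49. Among the other Chrac1 probes, A_52_P106537 passed on days 4 and 6, at -0.55 and -0.60. The probe A_52_P1052401 was instead higher by 1.74 on day 6, so the probes of these genes moved alike only in part.

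Of the 15 other CHD and NuRD genes, 1 was higher and 3 lower on day 2, 3 and 6 on day 4, and 3 and 5 on day 6. In either direction that is 26.7%, 60% and 53.3%, beside 12.5%, 42.3% and 50.6% of all genes. Chd3, the alternative NuRD ATPase to Chd4, rose by 1.19 ± 0.19 on day 4 and 1.71 ± 0.19 on day 6 (limma adjusted p = 0.00145 and 0.000164, 3.28-fold on day 6). Its 4 probes all passed on day 6, but on day 4 the probe A_51_P416126 was at 0.10 and did not pass. Mbd2, the NuRD subunit that binds methylated DNA, rose by 0.64, 1.15 and 1.31 on the 3 days (adjusted p = 0.00562, 4.69e-05 and 1.7e-05). The other Mbd2 probe was at 0.38, 2.71 and 1.04 and passed on day 4 alone. Smaller rises were called for Mta3 at 0.31 on day 4 and Gatad2a at 0.25 on day 6 (adjusted p = 0.0312 and 0.0373), each by 1 of 2 probes. Chd5, a neuronal CHD protein, fell by 0.46, 0.84 and 1.42 (adjusted p = 0.0385, 0.000603 and 2.93e-05), and Chd9 by 0.63, 1.16 and 1.35 (adjusted p = 0.0174, 0.000188 and 6.13e-05). A single Chd9 probe of 5, A_52_P70035, was at 0.05 on day 6. On day 2 the Chd9 call rested on A_52_P598971 alone, with the other probes at -0.14, -0.59, -0.63 and 0.19. The Chd5 call of day 2 rested on A_52_P18299 alone, with the others at -0.41 and -0.27. Chd2 fell by 0.82 on day 6 (adjusted p = 0.00119), and on day 4 it was at -0.70 (adjusted p = 0.00363 over all probes). Gatad2b fell by 0.48 on day 2 and 0.76 on day 4 (adjusted p = 0.0474 and 0.00195). On day 6 Gatad2b was at -0.45 (adjusted p = 0.0197 over all probes). Each of these Gatad2b calls was by 1 of its 3 probes.

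The calls that named these subunits kept their direction when scaled to the median, by quantiles or as in the authors' value table. Of these 38 calls, which leave out the other days given for a subunit, 30, 36 and 35 passed the test under these scalings. Those lost with median scaling were Dpf2 and Gatad2b on day 2, Brd9 and Mta3 on day 4, and Smarce1, Brd9, Pbrm1 and Gatad2a on day 6.

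**Figure D4:**
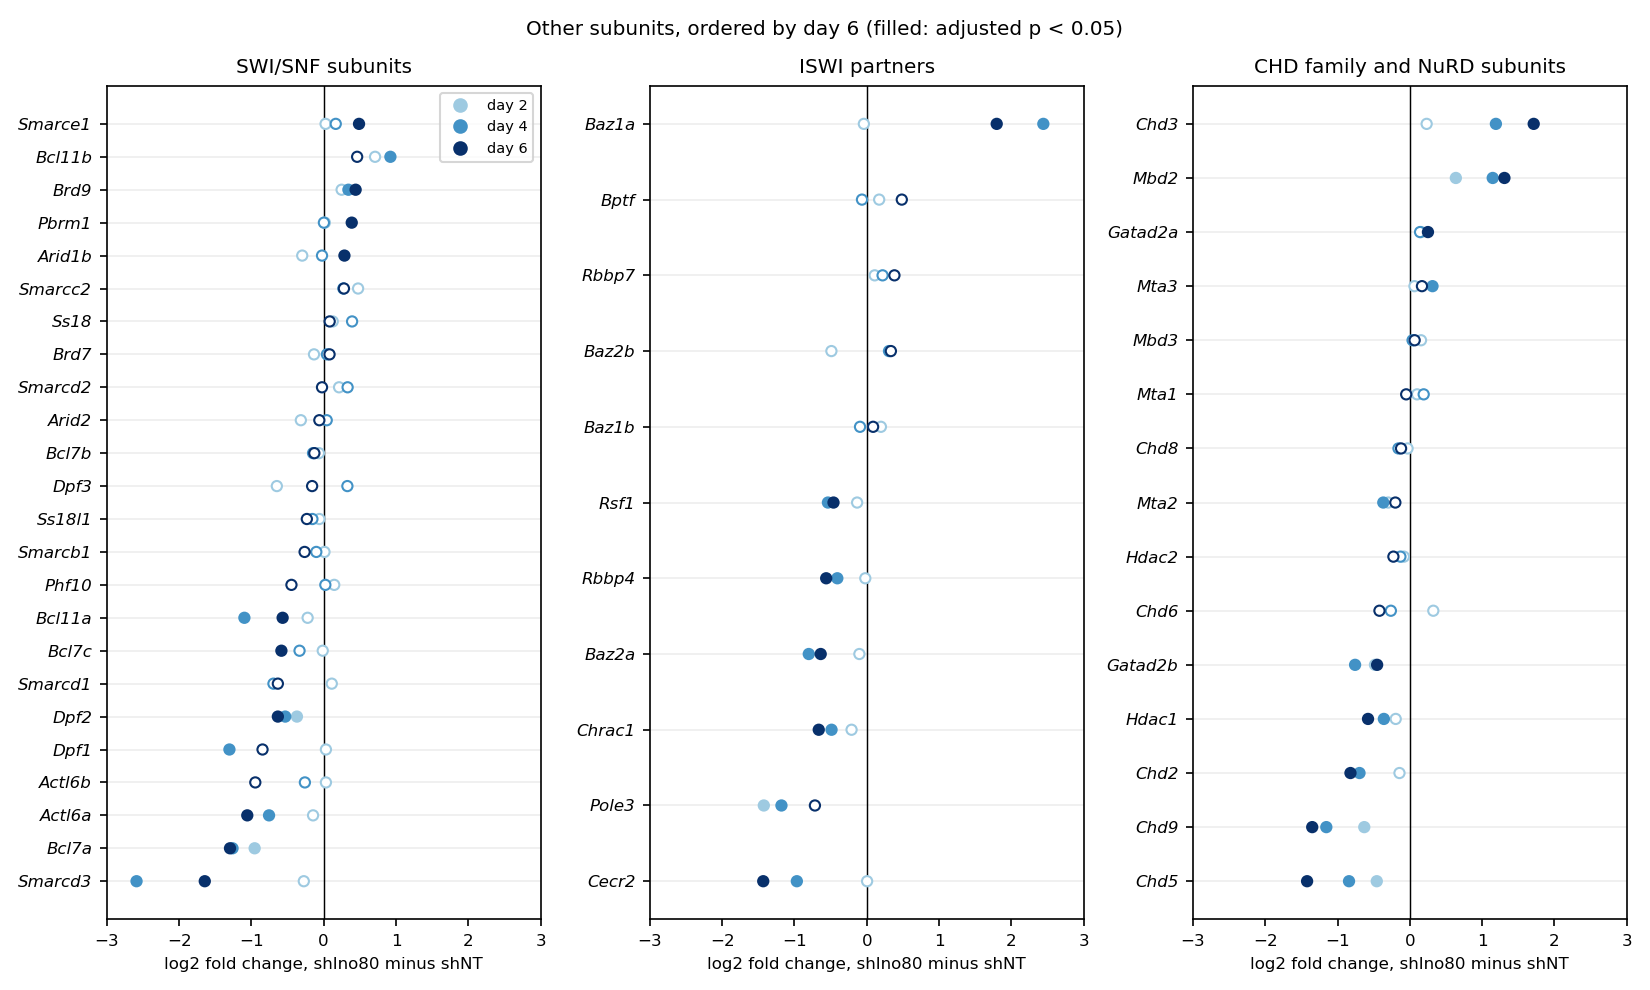
Log2 fold change of shIno80 minus shNT (x) of the 50 other subunits tested (y), in 3 lists and ordered by day 6 within a list; colours are days and filled points had a limma adjusted p under 0.05. Baz1a, Chd3 and Mbd2 stand at the upper right, and Smarcd3 reaches -2.59 on day 4.

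The profiles of the members called on day 4 or 6 were set against those of 15040 named genes by the root mean square distance of log2 values over the 12 arrays, after centring each gene. Closest to Smarca2 were H1f2, a linker histone, at a distance of 0.23, and Sparc, a secreted matrix protein, at 0.28, where Smarca2 itself varied with an SD of 1.04. H1f2 differed by 0.80, 1.50 and 2.89 between hairpins on days 2, 4 and 6. Its likeness to Smarca2 in these values follows from its choice by distance over the same arrays. Closest to Arid1a were Ebp and Rbm5 (0.07 each), and closest to Chd4 were Scp2 at 0.07 and Fam118b at 0.09. Among the members, Chd4 lay nearest to Smarca5 at 0.17 and Arid1a nearest to Chd4 at 0.23, while the nearest to Smarca2 was Chd7 at 0.88.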

How the data were processed

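Total RNA was labelled for 12 single-colour Agilent arrays. The deposited scanner files hold intensity per spot from Feature Extraction, background-subtracted and detrended within each array but not scaled between arrays, per the file headers; the deposited value table holds log2 values that equal mean spot intensities times 1 factor per array. The labels name Cy5 while the files hold green columns. Each array's log2 processed intensities were set relative to the 75th percentile of its gene probes. Non-uniform and outlier spots were dropped (125 probes lost), and dim probes were removed unless both arrays of some group flagged them as well above background. The brightest remaining probe, by its mean, stood for the gene. Of the probes, 22951 were named by accession, 6659 by current symbol, 3113 by an older symbol and 8451 as in the files. Pbrm1 probes, filed as Pb1, were told from another gene of that symbol by their description.

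limma 3.58.1 in R 4.3.3 (lmFit, eBayes) was fitted to the 6 groups over all 19183 genes, and again over all 28654 probes, with Benjamini-Hochberg adjustment and a threshold of 0.05. The fit over genes was tested on simulated data. Prior and residual degrees of freedom were 2.19 and 6; precision is limited by how few arrays each group has. Alternatives changed scaling, background, filter, probe choice, spot marks, group record, block and single arrays. Replicate numbers were not treated as pairs: deviations of same-numbered arrays correlated at 0.30, 0.12 and 0.08 on days 2, 4 and 6. The members and lists were chosen with earlier results of these data known. Named were all members, up to 3 rises and 3 falls called per list and day, and the 2 genes closest in profile to a member called on day 4 or 6. A subunit can therefore have passed on a day for which it is not named. No genome of build mm7 was used, so exon and UTR positions of probes are not given.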

Additional observations from a re-analysis of the deposited data

Results flagged for a closer look

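The response of Smarca2 to the Ino80 hairpin differed between days: the difference of shIno80 minus shNT was larger on day 6 than on day 4 by 1.57 ± 0.20 on the log2 scale (limma adjusted p = 0.00722), with both shIno80 arrays higher and both shNT arrays lower on day 6 than on day 4. It ranged from 1.49 to 1.65 when any 1 array was left out and kept its call. In the authors' value table it was 0.87 (adjusted p = 0.00942). With the local background subtracted and an offset added it was 0.69 and did not pass (adjusted p = 0.092). The shNT probe was not well above background on day 6.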

How the results depend on the processing

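With the groups as the scanner files are attached, Ino80 itself was not lower in shIno80 (0.12, 0.16 and 0.19 on days 2, 4 and 6), Smarca2 was at -0.25, -0.089 and -0.14, Arid1a on day 4 was at 0.055, the later change of Smarca2 was -0.05, and 0 members, probes, time changes and other subunits were called on any day; limma at an unadjusted p under 0.05 then held 0 members on each day, against 3, 4 and 3 on days 2, 4 and 6 with the value table's groups. Normexp background correction called 0 members, member probes and time changes, and 0, 6 and 10 other subunits on days 2, 4 and 6. With it, limma at an unadjusted p under 0.05 held 2 members on each day, and Smarca2 was at -0.96 on day 2. Its fitted background mean ran from -898 to -12.5 between arrays, and the 1st percentile of the signal from -15.1 to -3.91. Subtraction with an offset, chosen after seeing the data, called 1 member on day 2 and 0 for the later change. The arrays of day 2 alone called 0 members, 0 probes and 0 other subunits (2, 3 and 8 by limma at an unadjusted p under 0.05). On day 2, median scaling, no filter, and the filter for all 12 arrays (which removes Smarca2, and with it the later change, then 0) each called 1 member, and quantile normalization 4 members and 5 probes. On day 6 quantile normalization and the mean of a gene's probes each called 4 members, and 2 probes were called there in the value table. Other subunits on day 2 numbered 4 in the value table, 4 with no filter and 3 by the mean of probes. In shNT, the rises to day 4 numbered 1 with median scaling or no filter; the falls to day 6 numbered 2 with median scaling, 3 in the value table, 2 with no filter and 1 by the mean of probes. In shIno80, median scaling called 1 to day 4, and no filter and the mean of probes called 2 each to day 6. The replicate block, whose numbers share no stated pairing, called 1 change of response to day 4, 2 shNT falls and 8 probes on day 4; it changed no other count by over 1.5 times.

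Leaving out 1 array at a time gave 1 to 2, 2 to 4 and 2 to 3 members on days 2, 4 and 6; 0 to 2 and 1 to 1 changes of response (2 to day 4 without replicate 2 of shNT day 2); 0 to 3, 1 to 7, 0 to 5 and 0 to 6 changes over time (shNT, then shIno80); 1 to 3, 2 to 4 and 2 to 9 probes; and 2 to 6, 16 to 24 and 19 to 28 other subunits. Without replicate 1 or 2 of shIno80 day 2, 2 and 3 other subunits were called on that day, against 7 with all arrays, and 4 without replicate 1 of shNT day 2 or replicate 2 of shNT day 4, shIno80 day 4 or shNT day 6. Median scaling shifted the median of all genes on day 4 from -0.05 to -0.20, and the value table that of day 6 from -0.14 to 0.06. For single members and Ino80, 676 values kept their side of the threshold, 33 lost their call and 21 gained one. Another 9 changed direction with the reported or the alternative value called. Values that changed direction with neither called count among the 676. Smarca4 on day 2, which ranged from -0.51 to 0.36, is an example. The causes were not tested. Smarca2 was not well above background in shNT on day 6, which limits its size there.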
